A study of Mus musculus with 4 samples.

Results

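Fragments of the RNAs encoded by the mitochondrial chromosome were examined in small RNA libraries from mouse fetal liver. The members were chosen from the deposited lists of read sequences and counts: reads of at least 18 nt that matched no miRNA hairpin and matched, without mismatch and in the sense direction, one of the 37 GENCODE genes of the mitochondrial chromosome. They comprised 22 tRNA, 2 rRNA and 13 mRNA genes. Altogether 26063 of 6369274 distinct read sequences met the rule, with 9706 reads in wildtype 1, 12140 in wildtype 2, 52505 in Ago2 CD 1 and 33361 in Ago2 CD 2.

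The study compared 2 wildtype libraries with 2 libraries of an Ago2 catalytic dead (CD) mutant, in which the Argonaute protein is present but lacks its RNA-cutting activity. The labels describe the libraries as biological replicates of total RNA from dissected fetal liver, cloned with an Illumina small RNA kit, with no treatment. Age, strain, zygosity, the mutated residue and the number of pooled livers are not given in the sources used here. The libraries held 13138065 to 21875540 reads. Since Ago2 cuts the Mir451a hairpin to make the erythroid miR-451, that hairpin took 6382782 and 3946310 reads in wildtype against 49306 and 38790 in Ago2 CD, so all levels here are RPM, the reads of a kind in every 1000000 reads outside it (9164374 to 21786299 reads). The longest read was 46 nt in wildtype 2 and Ago2 CD 1 and 50 nt in wildtype 1 and Ago2 CD 2, and many features of the reads followed this division, so ratios are also given within each of these pairs. Fragments of the Ago2 mRNA stood at 18.6 and 21.4 RPM in wildtype against 24.01 and 24.27 in Ago2 CD, which does not check the genotype, since reads of this kind do not show which allele they came from.

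Mitochondrial DNA is transcribed from both strands as long precursors in which tRNAs lie between the rRNAs and mRNAs. The endonucleases RNase P and Elac2 cut at the tRNA ends, Trnt1 adds CCA to the tRNAs, and the released mRNAs encode subunits of the respiratory chain and of ATP synthase. A folded tRNA exposes an anticodon loop, where nucleases can cut it. Fetal liver is the main blood-forming organ of the fetus, with erythroid cells of high mitochondrial demand beside immature hepatocytes.

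The sequences on which the results turn are the tRNAs mt-Tm (methionine), mt-Ts2 (serine, AGY codons), mt-Tc (cysteine) and mt-Tv (valine), with the 7-base anticodon loop in capitals, and the start of mt-Co1. They were read from the GENCODE transcripts of build GRCm38, with T for U, and lie at chrM:3845-3913 (plus strand), chrM:11613-11671 (plus), chrM:5192-5257 (minus), chrM:1025-1093 (plus) and chrM:5328-5387 (plus). In mt-Co1, which encodes a catalytic subunit of cytochrome c oxidase, the window holds bases 1 to 60 of the annotated mRNA, and the capitals mark bases 8 to 25, shared by all reads that end at base 25.
mt-Tm: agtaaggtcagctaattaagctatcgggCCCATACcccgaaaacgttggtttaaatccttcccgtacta
mt-Ts2: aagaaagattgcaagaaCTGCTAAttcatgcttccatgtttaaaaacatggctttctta
mt-Tc: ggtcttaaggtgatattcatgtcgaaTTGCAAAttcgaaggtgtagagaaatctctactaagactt
mt-Tv: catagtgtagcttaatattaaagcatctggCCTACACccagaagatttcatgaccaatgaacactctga
mt-Co1: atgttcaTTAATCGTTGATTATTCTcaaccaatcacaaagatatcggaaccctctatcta

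Mitochondrially encoded fragments stood at 1029.95 and 1325 RPM in wildtype 1 and 2 against 2410.0 and 2201 RPM in Ago2 CD 1 and 2. Both mutant libraries lay above both wildtype libraries. The means were 1177 ± 208 (SD, n = 2) and 2305 ± 148 RPM (SD, n = 2), a ratio of 1.96, with 1.82 within the 46 nt libraries and 2.14 within the 50 nt libraries. An exact two-sided permutation test of 2 against 2 libraries cannot give less than 0.333, which was its value here. In bulk tissue, a change in the number of cells of a type and a change in RNA per cell cannot be told apart.

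Fragments of tRNA stood at 457 and 763 RPM in wildtype against 1484 and 945 in Ago2 CD, a ratio of 1.99. Fragments of mRNA stood at 438 and 388 RPM in wildtype against 725 and 968 in Ago2 CD, a ratio of 2.05. Those of rRNA stood at 135 and 174 in wildtype against 201 and 288 in Ago2 CD, a ratio of 1.58 that came to 1.15 within the 46 nt libraries and 2.14 within the 50 nt libraries. In each class both mutant libraries were above both wildtype libraries (exact permutation p = 0.333 each, n = 2 per group). The rRNA class took the smallest part of the fragments, between 8.33% and 13.1%.

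Fragments of nuclear genes other than hairpins were also more frequent in the mutant, at 10195 and 10694 RPM in wildtype against 13347 and 17431 in Ago2 CD, a ratio of 1.47. Set against them, there were 10.1 and 12.4 mitochondrial fragments per 100 nuclear gene fragments in wildtype against 18.1 and 12.6 in Ago2 CD. The groups remain apart on that scale, but wildtype 2 and Ago2 CD 2 are close. By class, mRNA fragments were apart (4.30 and 3.63 in wildtype against 5.43 and 5.55 in Ago2 CD), whereas tRNA fragments overlapped, with 4.49 and 7.13 in wildtype against 11.1 and 5.42 in Ago2 CD. The rRNA fragments overlapped too, with a ratio of 1.07 that was 0.924 within the 46 nt libraries and 1.25 within the 50 nt libraries. For comparison, snoRNA fragments had a ratio of 0.909 and miRNA hairpins other than Mir451a one of 1.07.

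Summed fragments of hepatocyte marker mRNAs (13 of 13 listed genes with reads, among them Alb and Afp) stood at 220.2 and 346 RPM in wildtype against 598 and 515 in Ago2 CD, a ratio of 1.96. Those of erythroid markers (11 of 12 listed genes with reads, globin mRNAs included), stood at 385 and 435 in wildtype against 508 and 669 in Ago2 CD, a ratio of 1.44. Both lists had both mutant libraries above both wildtype libraries, and none of the 23 features of the lists that were tested passed edgeR's threshold. The same order held for marker lists with sums of at most 17.0 RPM. Their ratios were 2.42 (megakaryocyte), 1.73 (mesenchyme), 1.65 (endothelium), 1.61 (myeloid) and 1.48 (macrophage). The 8 skeletal muscle markers summed to at most 0.637 RPM and the 4 heart markers to at most 0.106. The skeletal muscle markers Acta1, Myh3, Mylpf, Tnnc2 and Tnnt3 had no read in any library, nor had the heart markers Myh6, Myh7 and Nppa. The part of cell composition in the mitochondrial values was not tested.

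Single genes were compared with edgeR's quasi-likelihood test over 3833 features, 37 of them mitochondrial genes. At an adjusted p under 0.05 (Benjamini-Hochberg) none of the 37 passed, nor did any of all features (0%). At an unadjusted p under 0.05, 4 mitochondrial genes were higher (mt-Tg, mt-Tv, mt-Co3 and mt-Atp8), against 10.8% of all features. DESeq2 called none of the 37 and 0.13% of all features, and at an unadjusted p under 0.05 it had 0 mitochondrial genes higher, against 0.157% of all. Limma voom called no feature, and at that level it had 12 mitochondrial genes higher, against 6.21% of all features. With a library size that includes the Mir451a reads, edgeR called 10 of the 37 genes higher, beside 31.7% of all features.

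When the longest read length of the file was a term in the edgeR model, 15 of the 37 genes rose in Ago2 CD and none fell, against 3.24% of all features called higher. With 2 libraries per group this model leaves little spread between replicates of its own. All p-values given with that term, however small, rest mostly on the spread that the fit shares over all features. The 15 were 10 of 13 mRNAs and 5 of 22 tRNAs (mt-Tm, mt-Ts2, mt-Tv, mt-Tc and mt-Tg), with neither rRNA. The log2 fold changes, without that term, had a median of 0.77 over the 37 genes, 0.65 over the tRNAs and 1.00 over the mRNAs, beside 0.46 over all features tested and 0.52 over nuclear genes. Of the 37 genes 36 had a positive log2 fold change, 32 with TMM scaling and 30 with DESeq2 size factors, which moved the median of all features to -0.04 and that of the 37 genes to 0.34. Both mutant libraries were above both wildtype libraries for 21 of 37 genes, beside 45.6% of all features and 51.6% of nuclear genes, and 32 of 37 were higher within both pairs of equal read length, beside 59.7%.

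**Figure D1:**
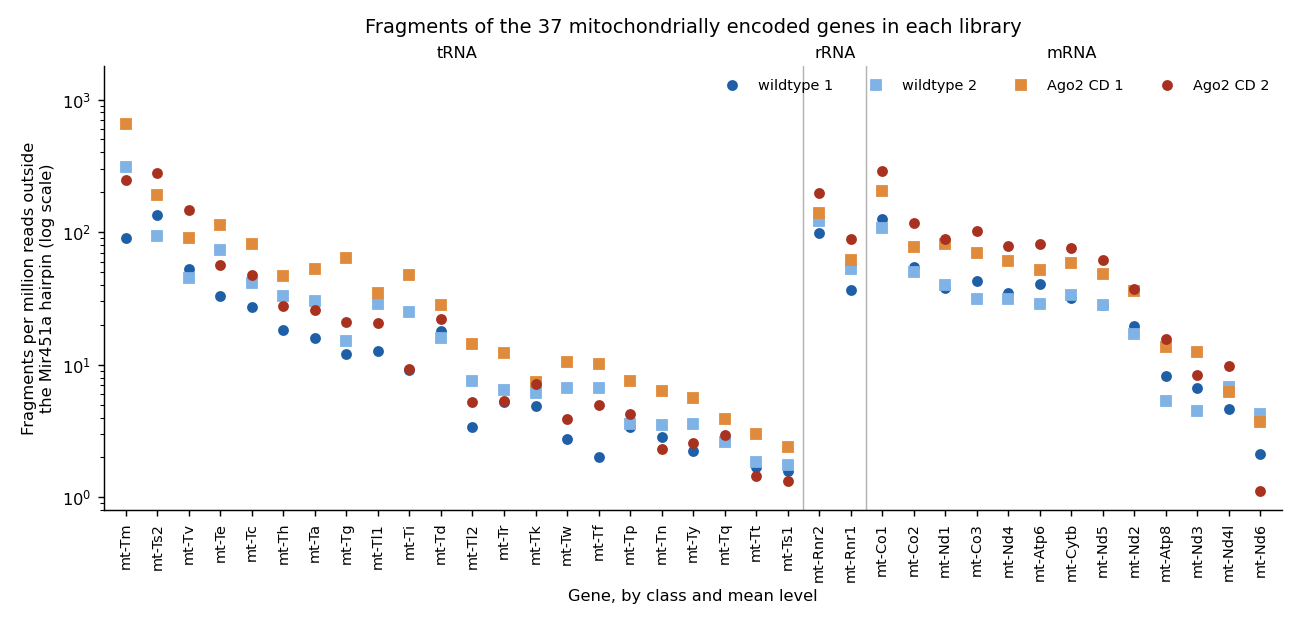
Level in RPM (log axis) of each of the 37 mitochondrially encoded genes, in order of mean level within tRNA, rRNA and mRNA. Each point is 1 library; most mRNA points separate by genotype (circles and squares in red and orange above blue), whereas many tRNAs order by longest read, with squares (46 nt) above circles (50 nt).

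Among the tRNAs, levels spanned from a mean of 1.76 RPM for mt-Ts1 (serine, UCN codons) to 324 for mt-Tm. The initiator and elongator tRNA of mitochondrial translation, mt-Tm gave 90.4 and 310.3 RPM of fragments in wildtype 1 and 2 against 649.9 and 247 in Ago2 CD 1 and 2. Each wildtype library was below the mutant library of its own read length, but wildtype 2 was above Ago2 CD 2. The log2 fold change was 1.16 (SE 0.70, adjusted p = 0.465, edgeR) and, with read length as a term, 1.26 (SE 0.18, adjusted p = 4.2e-09, edgeR). Without that term it was 0.30 when Ago2 CD 1 was left out, 0.53 without wildtype 1 and 2.31 without wildtype 2. Per kilobase of gene, mt-Tm (4701) and mt-Ts2 (2971) stood above all other mitochondrial genes, followed by mt-Tv (1210) and mt-Te (1000), while the highest mRNA, mt-Co1, stood at 118.

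For mt-Ts2, a serine tRNA that lacks a D arm, wildtype held 135 and 93.8 RPM of fragments and Ago2 CD 192 and 280.3. The groups did not overlap, and the ratio was alike within both pairs, 2.05 and 2.08 (log2 fold change 1.05, SE 0.51, adjusted p = 0.44, edgeR; adjusted p = 0.000164 with read length as a term). The valine tRNA mt-Tv, which lies between the rRNA genes and is also built into the mitochondrial ribosome, gave 52.4 and 45.4 RPM in wildtype against 90.4 and 146 in Ago2 CD. Its log2 fold change was 1.27 (SE 0.53, adjusted p = 0.422, edgeR; adjusted p = 0.000189 with read length as a term). The glutamate tRNA mt-Te gave 33.002 and 73.1 in wildtype against 114 and 56.3 in Ago2 CD, so that the groups overlapped (log2 fold change 0.68, SE 0.62, adjusted p = 0.616, edgeR), and the read length term did not bring it past the threshold (adjusted p = 0.0813, edgeR).

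The glycine tRNA mt-Tg had the largest fold change of the 37 genes. It gave 12.1 and 15.2 RPM of fragments in wildtype against 64.0 and 20.8 in Ago2 CD, with ratios of 4.22 within the 46 nt libraries and 1.72 within the 50 nt libraries, and its value rests largely on Ago2 CD 1 (log2 fold change 1.64, SE 0.65, adjusted p = 0.41, edgeR; 0.61 without that library). The cysteine tRNA mt-Tc gave 27.5 and 41.6 RPM in wildtype against 82.0 and 47.6 in Ago2 CD, without overlap. Among the other 16 tRNAs the mean level was at most 31.4 RPM, and none passed the threshold in either model. Of the 22 tRNAs 19 were higher in the mutant within both pairs. The 3 exceptions, mt-Tn (asparagine), mt-Tt (threonine) and mt-Ts1, were at most 3.74 RPM and had ratios of 0.806, 0.855 and 0.829 within the 50 nt libraries. The 14 tRNAs on the plus strand, mt-Tm and mt-Ts2 among them, summed to a ratio of 2.07, without overlap of the groups. The 8 on the minus strand summed to one of 1.68. Their sums overlapped, at 89.3 and 160 RPM in wildtype against 274 and 143 in Ago2 CD.

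The rRNAs mt-Rnr2 (16S) and mt-Rnr1 (12S) form the cores of the large and small mitochondrial ribosomal subunits. Wildtype held 97.8 and 121 RPM of mt-Rnr2 fragments and Ago2 CD 139 and 199, and for mt-Rnr1 the values were 36.8 and 52.7 in wildtype against 61.4 and 89.5 in Ago2 CD. The groups did not overlap, but the differences were small in the 46 nt libraries (ratios of 1.15 and 1.16) and larger in the 50 nt libraries (2.03 and 2.43). Neither rRNA passed the threshold, with log2 fold changes of 0.62 (SE 0.50) and 0.75 (SE 0.53).

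Among the mRNAs mt-Co1 was highest, with 125 and 108 RPM of fragments in wildtype against 204 and 290.3 in Ago2 CD. Both mutant libraries were above both wildtype libraries (log2 fold change 1.09, SE 0.50, adjusted p = 0.422, edgeR; adjusted p = 7.79e-05 with read length as a term). The other oxidase subunit mRNAs moved alike: mt-Co2 stood at 55.0 and 49.8 in wildtype against 76.7 and 117 in Ago2 CD, and mt-Co3 at 42.6 and 31.4 in wildtype against 70.2 and 102 in Ago2 CD. With read length as a term both rose, with edgeR's adjusted p = 0.0307 and 0.000964. Complex I subunit mt-Nd1 stood at 37.99 and 39.83 in wildtype against 81.6 and 88.5 in Ago2 CD (adjusted p = 0.00341 with read length as a term, edgeR).

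The ATP synthase mRNA mt-Atp8 stood at 8.28 and 5.35 RPM in wildtype against 13.6 and 15.6 in Ago2 CD (log2 fold change 1.10, SE 0.48, adjusted p = 0.422, edgeR; adjusted p = 0.0238 with read length as a term). Also past the threshold with that term were mt-Nd4, mt-Atp6, mt-Cytb, mt-Nd5 and mt-Nd2, with ratios between 1.93 and 2.11. Of the 3 mRNAs that were not, mt-Nd3 had a ratio of 1.88 and mt-Nd4l, which shares bases with mt-Nd4, one of 1.40. The third was mt-Nd6, the single mRNA of the minus strand and the one mitochondrial gene with a ratio below 1. It stood at 2.12 and 4.26 RPM in wildtype against 3.72 and 1.12 in Ago2 CD, with overlapping groups (log2 fold change -0.36, SE 0.56, adjusted p = 0.789, edgeR).

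A nuclear transcript was also matched by 60.3% to 64.9% of the mRNA fragments, by 6.54% to 9.06% of the rRNA fragments and by at most 0.0928% of the tRNA fragments. These fragments carry the same letters as the nuclear transcript, and their origin cannot be told from the sequence. For mt-Co1 the transcript was Gm13340, and 811, 686, 3265 and 3182 reads matched both. Reads that matched Gm13340 and no mitochondrial gene numbered 0, 1, 0 and 11. Without the fragments that also match nuclear transcripts, the log2 ratio of the mRNA class was 1.04 beside 1.03 with them.

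By the rule of an exact match, fragments of the tRNAs rarely reached the end of the gene. They started at the first base in 46.04% and 57.04% of tRNA fragments in wildtype and in 61.6% and 47.8% in Ago2 CD. They ended at the last base in 3.09% and 0.844% in wildtype against 0.745% and 3.65% in Ago2 CD. A fragment with both ends could not be seen, since the shortest of these tRNAs, mt-Ts2, has 59 nt and reads reached 50 nt. The shares for the first and the last base ordered the libraries by longest read and not by genotype (exact permutation p = 0.667 and 1, n = 2 per group). Within the 46 nt and 50 nt pairs the first-base share was higher in the mutant, by 4.52 and 1.80 percentage points. Without mt-Tm and mt-Ts2 these differences were 1.84 and -5.49. Reads with C, CC or CCA after the last base fall outside the rule. With them counted, the last-base share was 8.78% and 1.80% in wildtype against 1.75% and 15.3% in Ago2 CD. Of the 22 tRNAs 8 had over 50% of their fragments from the first base and 13 had over 50% with neither end, and mt-Th (histidine) had none from its first base.

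The share of tRNA fragments that ended inside the anticodon loop did separate the genotypes. This measure was chosen after the values were seen. It was 40.7% and 34.3% in wildtype against 49.9% and 56.2% in Ago2 CD, higher by 15.7 percentage points within the 46 nt libraries and by 15.5 within the 50 nt libraries (exact permutation p = 0.333, n = 2 per group). Fragments that ended in the loop stood at 186 and 261 RPM in wildtype against 741 and 531 in Ago2 CD, a ratio of 2.84, which was 2.84 and 2.85 within the pairs. All other tRNA fragments stood at 271 and 501 in wildtype against 743 and 414 in Ago2 CD, with overlapping groups and a ratio of 1.498. Without mt-Tm and mt-Ts2, which gave most loop ends, the ratios were 3.04 and 1.58. Fragments from base 1 with a loop end made up 31.8% and 27.8% in wildtype against 39.7% and 40.5% in Ago2 CD. Without mt-Tm and mt-Ts2 these shares overlapped, at 5.63% and 7.64% in wildtype against 12.5% and 3.62% in Ago2 CD. Fragments whose first base followed a loop base overlapped too, at 6.80% and 2.92% in wildtype against 2.33% and 8.69% in Ago2 CD.

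Of 11 tRNAs with a mean of at least 1 RPM of loop-ending fragments, 10 had more of them in the mutant within both pairs. In 10 of the 11 the ratio was larger for loop-ending than for other fragments, with medians of 2.60 and 1.53. It was highest for mt-Tv, whose loop-ending fragments stood at 8.91 and 5.46 RPM in wildtype against 29.6 and 37.7 in Ago2 CD. The mt-Tv loop begins with CC, so a shorter fragment with a C added to its end could have the same letters. The exception was the lysine tRNA mt-Tk, with 1.38 and 1.75 in wildtype against 0.918 and 2.44 in Ago2 CD. The share of loop-ending fragments was larger in the mutant within both pairs in 9 of the 11, with mt-Ts2 a further exception. In mt-Ts2 it was 73.4% in wildtype 2 against 71.8% in Ago2 CD 1.

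**Figure D2:**
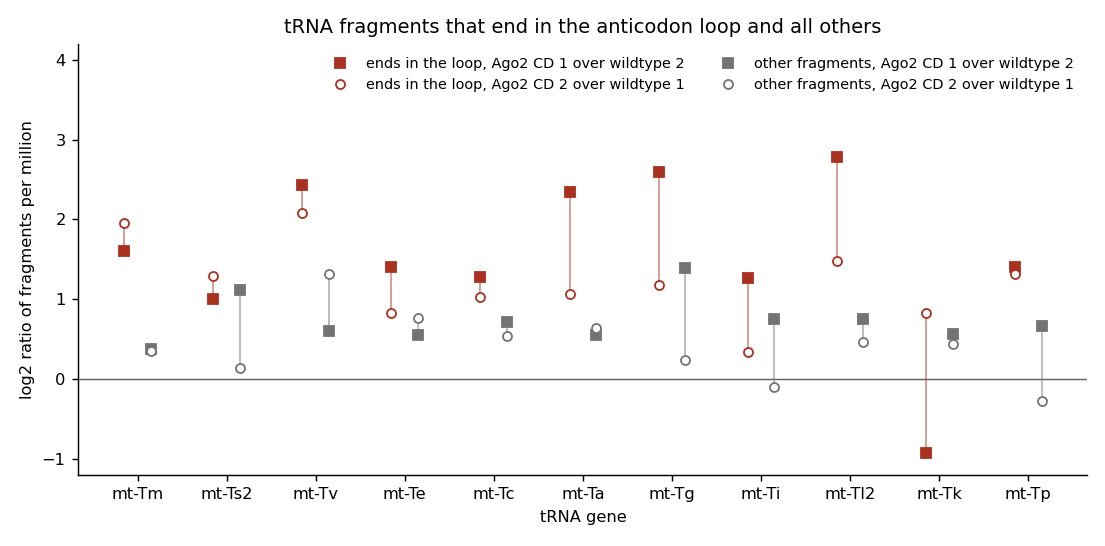
Log2 ratio of RPM, Ago2 CD over wildtype, for the 11 tRNAs with a mean of at least 1 RPM of loop-ending fragments. Red marks fragments that end in the anticodon loop, grey all other fragments of the same tRNA, filled squares the 46 nt pair and open circles the 50 nt pair; the red points of mt-Tm lie at 1.60 and 1.96, the grey ones at 0.37 and 0.35.

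Many of these ends were a C, and the share of reads with a last C also differed between libraries. It was 41.2% and 33.1% of mitochondrial fragments in wildtype against 41.2% and 52.0% in Ago2 CD. Among reads without any match it was 47.0% and 9.78% in wildtype against 14.3% and 53.8% in Ago2 CD, so it followed the longest read length and was also higher in the mutant within each pair. When fragments with a last C were left out, loop ends made up 24.7% and 17.0% of tRNA fragments in wildtype against 24.3% and 32.6% in Ago2 CD, so that the groups overlapped. Within the pairs the mutant stayed higher, by 7.26 percentage points in the 46 nt and 7.84 in the 50 nt libraries. The ratio of all mitochondrial fragments was then 1.66. The part of 3′ end composition in these differences was not tested.

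The methionine tRNA gave the most frequent single fragments. They run from base 1 to the start of the anticodon loop, whose bases are in capitals.
mt-Tm bases 1 to 29: agtaaggtcagctaattaagctatcgggC
mt-Tm bases 1 to 30: agtaaggtcagctaattaagctatcgggCC

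The 29 nt fragment stood at 33.002 and 107.5 RPM in wildtype against 271.5 and 109.7 in Ago2 CD, with both mutant libraries above both wildtype libraries, though Ago2 CD 2 only just. The 30 nt fragment, 1 base longer, stood at 2.65 and 11.9 in wildtype against 97.2 and 20.4 in Ago2 CD, with ratios of 8.17 and 7.71 within the pairs. Neither passed edgeR's threshold over 30051 sequences without the read length term (adjusted p = 1 each), and both did with it (log2 fold changes 1.53, SE 0.25, adjusted p = 1.99e-08, and 2.99, SE 0.34, adjusted p = 1.14e-17). The fragment of 28 nt, which stops 1 base before the loop, behaved otherwise. It stood at 8.81 and 97.8 RPM in wildtype against 131 and 4.35 in Ago2 CD, following the read length of the library. Leaving out 1 library gave log2 fold changes, without the read length term, between 0.64 (without Ago2 CD 1) and 2.53 (without wildtype 2) for the 29 nt fragment and between 1.49 and 4.47, without the same libraries, for the 30 nt fragment.

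Bases 29 and 30 of mt-Tm are both C, so a shorter fragment with an added C has the letters of a longer one and cannot be told apart from it. Reads that match a mitochondrial gene only once 1 last C is removed made up 7.16% and 0.312% of mitochondrial reads in wildtype 1 and 2 against 0.359% and 8.29% in Ago2 CD 1 and 2, so added C was frequent in the 50 nt libraries. Taken as one, the fragments from base 1 to bases 28, 29 or 30 stood at 44.5 and 217 RPM in wildtype against 500.04 and 134 in Ago2 CD. These sums overlapped between the groups and had ratios of 2.30 within the 46 nt and 3.02 within the 50 nt libraries. The part of added C in the loop ends was not tested.

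Among the mt-Tm fragments from base 1 to bases 27 to 30, the share that ended at base 30 was 5.84% and 5.05% in wildtype against 18.7% and 15.1% in Ago2 CD. The mean last base of all mt-Tm fragments from base 1 was 27.9 and 28.1 in wildtype against 28.6 and 28.9 in Ago2 CD. In both measures the groups did not overlap, and the last base lay later in the mutant, where an added C cannot be told from bases 29 and 30. In mt-Ts2, mt-Tc and mt-Tg the groups overlapped in the mean last base. In mt-Ti (isoleucine) it was lower in the mutant, at 26.23 and 26.25 in wildtype against 25.62 and 25.95 in Ago2 CD. Fragments of mt-Tm that ended at base 29 or 30 but started after base 1 stood at 11.99 and 20.73 RPM in wildtype against 50.03 and 57.32 in Ago2 CD.

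**Figure D3:**
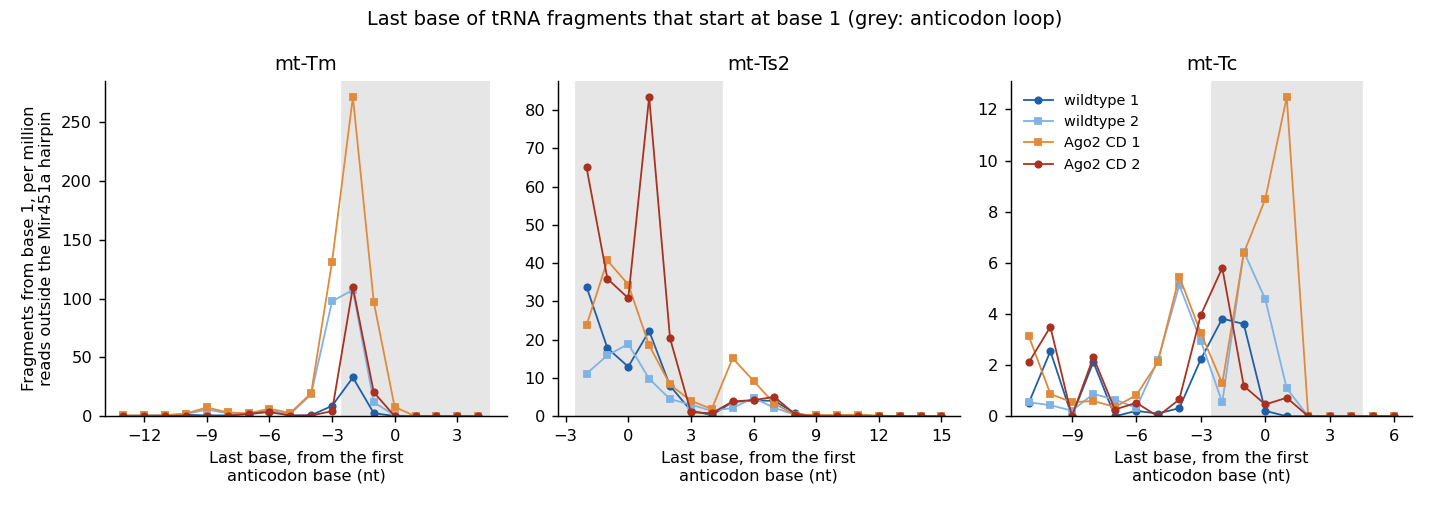
Level in RPM of fragments that start at base 1 of mt-Tm, mt-Ts2 and mt-Tc, by their last base counted from the first anticodon base (0), with the anticodon loop in grey. Lines are single libraries; in mt-Tm the peak 2 bases before the anticodon is the 29 nt fragment, highest in Ago2 CD 1 at 272 RPM.

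In mt-Ts2 the anticodon lies near the start of the RNA, and its fragments were short. All fragments of mt-Ts2 from base 1 stood at 109 and 74.7 RPM in wildtype against 161 and 251 in Ago2 CD, without overlap. The 19 nt fragment stood at 17.8 and 15.9 in wildtype against 40.7 and 35.9 in Ago2 CD, and the 20 nt fragment at 12.9 and 18.9 in wildtype against 34.4 and 30.9 in Ago2 CD. Here the groups lay apart with replicates close to each other (ratios of 2.27 and 2.05). The 21 nt fragment, the most frequent, stood at 22.3 and 9.82 in wildtype against 18.5 and 83.4 in Ago2 CD, with overlap.
mt-Ts2 bases 1 to 19: aagaaagattgcaagaaCT
mt-Ts2 bases 1 to 20: aagaaagattgcaagaaCTG
mt-Ts2 bases 1 to 21: aagaaagattgcaagaaCTGC

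In mt-Tc, an end within the anticodon changed most. Fragments whose last base was base 30, the middle base of the anticodon, stood at 1.27 and 2.18 RPM in wildtype against 19.9 and 12.2 in Ago2 CD, ratios of 9.11 and 9.58 within the pairs. The full fragment from base 1 to 30 was seen at 0 and 1.09 RPM in wildtype against 12.5 and 0.726 in Ago2 CD, so that most of these ends in Ago2 CD 2 belonged to fragments that started later. Base 30 of mt-Tc is a C, so a fragment that is 1 base shorter with an added C has the same letters. In mt-Tg, ends at base 31, the first anticodon base, stood at 0.106 and 0.873 in wildtype against 11.2 and 2.57 in Ago2 CD.
mt-Tc bases 1 to 30: ggtcttaaggtgatattcatgtcgaaTTGC

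Ends at single positions were then counted over all mitochondrial genes. Of 206 last-base positions with a mean of at least 1 RPM, 135 were higher in the mutant within both pairs and 11 lower within both. Of all gene-level features tested, 59.7% were higher within both pairs. At least 4 times higher within both pairs were 16, and none was at least 4 times lower. Of 177 first-base positions 14 were at least 4 times higher within both pairs and none lower by that much. End positions of other RNAs were not counted, so these position counts have no share over all RNAs beside them. Among distinct read sequences of at least 1 RPM, 19 of 154 mitochondrial sequences were at least 4 times higher within both pairs, beside 1.39% of all 25762 sequences of that level. These are descriptions, without a test.

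Of the first-base and last-base positions with a mean of at least 1 RPM, the largest ratio belonged to the last base 25 of mt-Co1, at the start of the coding sequence. Fragments that ended there numbered 7 and 1 reads in wildtype 1 and 2 and 292 and 217 in Ago2 CD 1 and 2, which is 0.743 and 0.109 RPM in wildtype against 13.4 and 14.3 in Ago2 CD. The mutant libraries lay close together and far above both wildtype libraries, a ratio of 32.5, with 123 and 19.3 within the pairs. The fragments shared their last base and started at each of the bases 1 to 8, the last start that leaves 18 nt. Reads that started at base 1 were the most frequent (5, 1, 114 and 91), followed by those from base 7 (0, 0, 52 and 27). One base after the shared end, at base 26, 0, 0, 0 and 1 reads started.
mt-Co1 bases 1 to 25: atgttcattaatcgttgattattct

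That 25 nt sequence (chrM:5328-5352, plus strand) stood at 0.531 and 0.109 RPM in wildtype against 5.233 and 6.003 in Ago2 CD. The log2 fold change was 4.10 (SE 1.24, adjusted p = 0.437, edgeR) and with read length as a term 4.12 (SE 0.61, adjusted p = 1.33e-10). It also matches Gm13340, so that its mitochondrial or nuclear origin cannot be told from the sequence. Fragments of mt-Co1 that neither started at base 1 nor ended at base 25 stood at 119 and 106 RPM in wildtype against 184.7 and 255.7 in Ago2 CD, with ratios of 1.74 and 2.14 within the pairs. The first bases of the other mRNAs together gave fragments at 14.1 and 16.6 in wildtype against 25.98 and 24.93 in Ago2 CD, a ratio of 1.66.

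**Figure D4:**
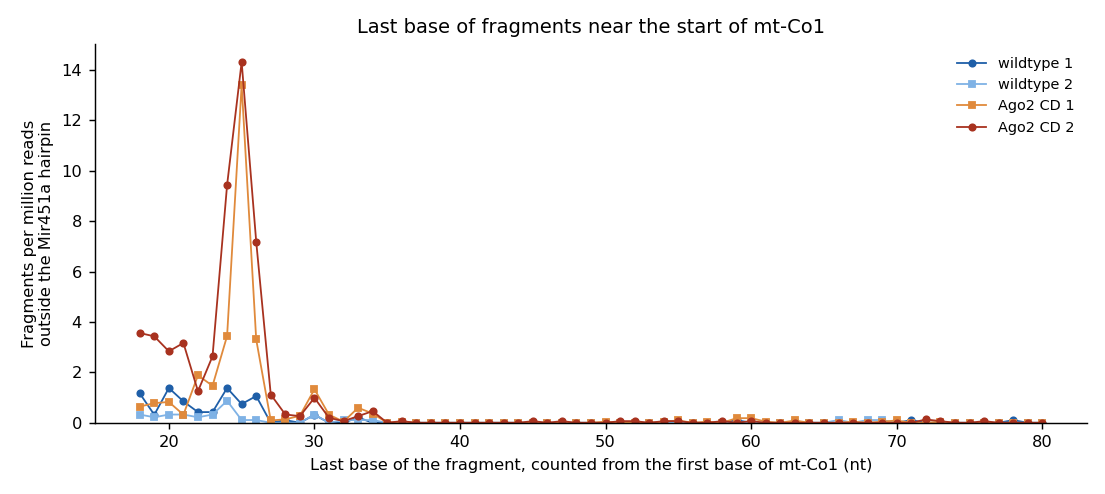
Level in RPM of mt-Co1 fragments by the position of their last base, from base 18 (the shortest fragment from base 1) to base 80. Lines are single libraries; at base 25 the Ago2 CD libraries reach 13.4 and 14.3 and the wildtype libraries 0.743 and 0.109.

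The other mRNA and rRNA ends that were at least 4 times higher within both pairs were less frequent than base 25 of mt-Co1. Ends at base 989 of mt-Cytb, the complex III cytochrome b mRNA, stood at 0.106 and 0.546 RPM in wildtype against 2.80 and 4.29 in Ago2 CD. In mt-Rnr2 ends at base 770 stood at 0.212 and 0.218 in wildtype against 1.51 and 3.17 in Ago2 CD. The most frequent last base of mt-Rnr2, base 970, stood at 9.87 and 11.3 in wildtype against 18.8 and 31.2 in Ago2 CD, a ratio of 2.36. Its first base did not follow: mt-Rnr2 fragments from base 1 stood at 14.7 and 22.9 in wildtype against 13.4 and 15.4 in Ago2 CD, with overlapping groups, while those of mt-Rnr1 stood at 6.79 and 12.003 in wildtype against 9.18 and 16.9 in Ago2 CD.

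Over all 200 mitochondrial read sequences tested, edgeR called none without the read length term and called 0% of the 30051 sequences. At an unadjusted p under 0.05, 4 mitochondrial sequences were higher, beside 0.106% of all. DESeq2 called no mitochondrial sequence, while it called 0.0333% of all sequences higher and 7.25% lower. At an unadjusted p under 0.05 it had 8 mitochondrial sequences higher, beside 0.133% of all. Limma voom called none, and had 0 mitochondrial sequences higher at that level, beside 0.0333% of all. With the read length term edgeR called 44, all higher in Ago2 CD, beside 2.27% of the 30051 sequences called higher. They came from 11 genes, with 11 from mt-Tm, 7 each from mt-Co1 and mt-Tv, 6 from mt-Ts2 and 3 each from mt-Tc and mt-Tg. Of the 44, 32 came from tRNAs (147 of the 200 tested did) and 27 ended in an anticodon loop (51 of the 200 did). A last C was found in 27 of the 44 and in 83 of the 200. The ratio was above 1 within both pairs for 43 of the 44, the exception being mt-Tg bases 1 to 30.

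The lengths of the fragments ordered the libraries by longest read, and the genotype groups overlapped. The mean length of tRNA fragments was 22.53 and 24.77 nt in wildtype against 25.29 and 22.67 nt in Ago2 CD. Fragments of 28 to 36 nt, the length class taken for tRNA fragments cut near the anticodon, were 14.7% and 36.5% of tRNA fragments in wildtype against 45.6% and 18.3% in Ago2 CD. In both, the libraries with a longest read of 46 nt had the larger values (exact permutation p = 0.667 and 0.667, n = 2 per group). Fragments of rRNA (mean 21.1 to 21.7 nt) and mRNA (21.24 to 21.97 nt) had broad distributions that fell from 18 or 19 nt upward, and the longest mitochondrial fragment of any library had 34 nt.

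**Figure D5:**
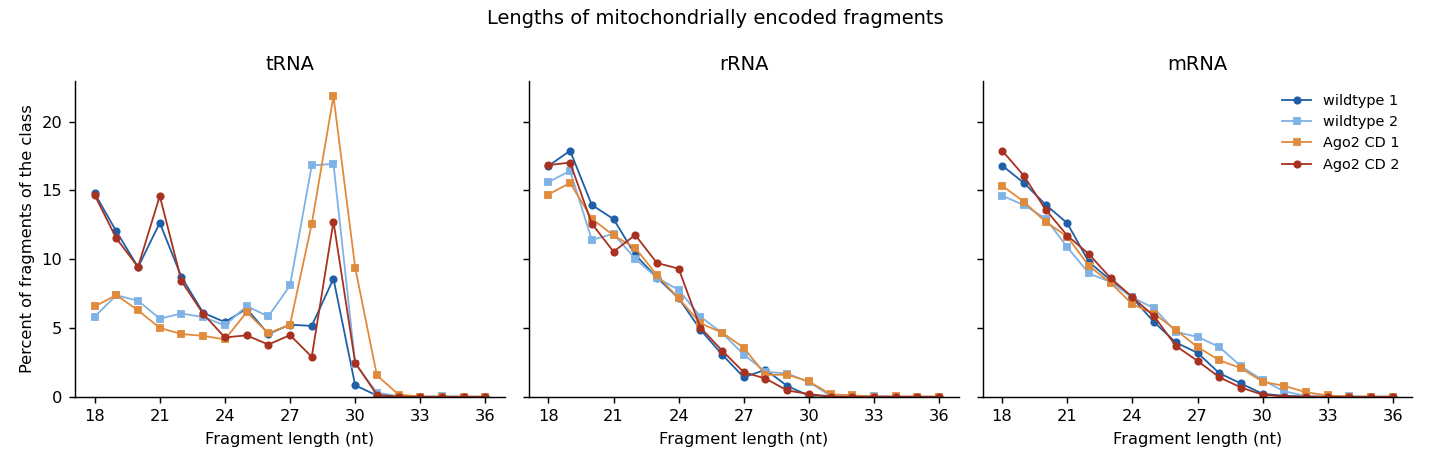
Length distribution of tRNA, rRNA and mRNA fragments in percent of the fragments of each class. Lines are single libraries, with squares for a longest read of 46 nt and circles for 50 nt; the tRNA panel has a peak at 29 nt, the length of the most frequent mt-Tm fragment, and the libraries with squares have the larger share of 28 to 36 nt.

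Fragments with the full CCA after the last tRNA base were rare. They stood at 5.62 and 1.42 RPM in wildtype against 1.56 and 15.96 in Ago2 CD, again higher in the 50 nt libraries. Those with only C there stood at 17.9 and 4.26 RPM in wildtype against 8.81 and 83.0 in Ago2 CD. Those with only CC stood at 4.99 and 1.75 in wildtype against 4.87 and 31.4 in Ago2 CD. Reads across a border of neighbouring genes stood at 1.27 and 0.764 RPM in wildtype against 2.98 and 3.83 in Ago2 CD. Both mutant libraries were above both wildtype libraries, and the share of such reads per 100 mitochondrial fragments was 0.124 and 0.0577 in wildtype against 0.124 and 0.174 in Ago2 CD. Antisense matches stood at 40.2 and 31.5 RPM in wildtype against 50.7 and 63.9 in Ago2 CD, a ratio of 1.60.

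Nuclear genes that serve mitochondrial RNA gave few fragments. Of 36 listed genes for transcription, cutting, CCA addition and decay of mitochondrial RNA, 34 had reads and 2 were tested: Lrpprc, an mRNA-stabilising protein (log2 fold change 0.59), and Pnpt1, an exoribonuclease (0.18). Neither passed the threshold. Of 51 nuclear-encoded respiratory chain subunits 51 had reads and 11 were tested. Their median log2 fold change was 0.54, beside 0.77 for the 37 mitochondrial genes, and none passed.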

How the data were processed

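The 4 deposited tables list read sequences with raw counts. Per the submitters' processing notes cutadapt was used; its version, and any aligner or genome build, are not given in the sources used here. Reads were matched without mismatch to GENCODE vM21 transcripts (GRCm38), first to miRNA hairpins, then to the 37 mitochondrial genes and to nuclear genes; reads in the overlap of mt-Atp8 and mt-Atp6 (9, 1, 20 and 11) were counted in the class and in neither gene. Library size was all reads outside the Mir451a hairpin, including those that match it once up to 3 last bases are removed. Precision is limited by 2 libraries per group and by 9706 to 52505 mitochondrial reads per library, without molecular identifiers.

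Counts per gene and per sequence (at least 40 reads in all) were tested with edgeR 4.0.16 (quasi-likelihood, filterByExpr, no further scaling factors, Benjamini-Hochberg over all features). Alternatives were TMM, DESeq2 1.42.0, limma 3.58.1 voom, other library sizes, filters and length limits, a block or term, and each library left out. Single values were compared by exact permutation. Only the edgeR fit per gene without the read length term was run on simulated counts. The fit with that term, the fits per sequence and the other methods were not. Genes given in full are the 10 highest, those past the threshold and up to 4 per direction by smallest unadjusted p with groups apart and at least 1 RPM; fragments are the most frequent of each high gene and up to 5 per direction, of at least 10 RPM, by the same order. Fragments of mt-Rnr2, mt-Te, mt-Co2 and other high genes that met the rule and did not pass the threshold are given with the processing effects. Positions with large ratios, loop-ending fragments, the summed mt-Tm fragments, mt-Tc, mt-Nd6 and the mt-Co1 end were chosen after their values were seen. The members and lists were chosen with earlier results of these data known.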

Additional observations from a re-analysis of the deposited data

How the results depend on the processing

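The ratios of all mitochondrial, tRNA, rRNA and mRNA fragments stayed above 1 under every alternative run, with a log2 ratio of the total between 0.53 (TMM-scaled sizes) and 1.59 (library size from every read of 18 nt or longer) beside 0.97. Library size and the read length term moved the number of calls: with that library size, which includes the Mir451a reads, 10 mitochondrial genes were higher (31.7% of all features were); with read length as a term 15 genes and 44 read sequences were. Replicate numbers shared by the groups did not pair the libraries. The correlation of deviations from the group means was 0.86 for equal longest read length. With 2 libraries per group, the -0.86 for equal numbers is the same value with its sign turned, not a second result. The term for read length is the crossed pairing, and this correlation comes from the same counts that were tested with it. With the replicate block 0 genes and 0 sequences were called. Leaving out 1 library gave 0 calls in each case and turned the direction of all measures of tRNA ends and lengths that follow read length: the difference in tRNA fragments from the first base ran from -3.70 to 10.01 percentage points, to the last base from -1.22 to 1.69 and with neither end from -8.79 to 2.02. The difference in mean length ran from -0.98 to 1.65 nt (tRNA), -0.17 to 0.31 nt (rRNA) and -0.42 to 0.21 nt (mRNA), that in the share of 28 to 36 nt from -7.34 to 19.96, -1.82 to 0.83 and -2.99 to 1.79 percentage points. The difference in loop-ending tRNA fragments ran from 12.4 to 18.8, was 9.60 without mt-Tm and mt-Ts2 and 7.55 without a last C. The log2 ratio of mt-Co1 ends at base 25 ran from 4.22 to 6.99. Single fragments that turned, all far from the threshold, were mt-Tv bases 36 to 53 (-0.42 to 2.05), mt-Co2 bases 1 to 27 (-0.95 to 0.85; -0.089 with voom and -0.046 with the replicate block), mt-Te bases 41 to 63 (-0.96 to 1.25), mt-Nd1 bases 1 to 26 (-0.60 to 1.73) and mt-Rnr1 bases 1 to 19 (-0.33 to 1.22); their cause was not tested. The fragment mt-Rnr2 bases 1 to 19 stayed below 0 (-1.10 to -0.34), and mt-Co3 bases 695 to 713 was too rare to be tested. Alternatives that concern nuclear transcripts, a last C, loop ends or the mt-Co1 end were chosen after seeing the data. A search of the nuclear genome was not run; nuclear transcripts took its place.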
